A study of Mus musculus with 72 samples.

Results

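Islets of DBA/2J mice kept for 33 days on a high-fat diet (HFD) were compared with islets of DBA/2J mice kept for 33 days on regular chow (RC), over all 14604 genes of the deposited table. The members were the columns that the labels assign to DBA/2J at day 33, which gave 4 HFD and 3 RC libraries among 69 libraries in all. An RC mouse of the same set has no column and was not analysed here. All mice were males, 8 weeks old per the labels, with no transgene, drug or deletion named, and the series also holds C57BL/6J and BALB/cJ mice and days 5 and 13. Each library was made from 120 to 150 hand-picked islets of 1 mouse after a night in culture medium, so spread here means spread between mice. The labels give neither the fat content of the diet nor the hour at which islets were taken. The question, as far as the labels state it, is how islet messenger RNA differs between the diets in this strain at the longest exposure.

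Pancreatic islets are small organs of hormone cells, in which beta cells make insulin and alpha cells make glucagon. Islet cells, like most mammalian cells, run a circadian clock. In its core loop BMAL1 (gene Arntl) pairs with CLOCK or NPAS2 and switches on the Period, Cryptochrome and REV-ERB genes, whose products act back on the loop. REV-ERB proteins (Nr1d1 and Nr1d2) repress Arntl, Npas2, Nfil3 and Cry1 through sites that ROR receptors activate, and the clock outputs DBP, TEF and HLF share their target sites with the repressor NFIL3. In beta cells this clock is known for timing insulin secretion over the day.

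Of the 19 clock genes measured, 1 passed the test and 0 passed on the lower side. Nr1d2 was higher under HFD, by 2.86-fold. Without passing, every HFD library also lay above every RC library for Dbp, Nr1d1, Per3, Tef and Ciart, and below every RC library for Npas2, Arntl, Nfil3 and Cry1. Since the labels do not give the hour at which islets were taken, differences by diet and by hour cannot be told apart in clock genes. The test was a linear model with 1 mean for each group of strain, diet and day (limma), fitted to log2 CPM. CPM are reads of a gene relative to the size of its library, and the authors had normalized them between libraries. With p-values adjusted over all 14604 genes at a threshold of 0.05, 3 genes passed, which is 0.0205% of those tested. All 3, Nr1d2, Adgrd1 and Zfp982, were higher under HFD.

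Upstream sequences are shown for the clock gene that passed the test and for the pair whose windows held more than 1 copy of a clock motif. They are from RefSeq (GRCm38.p6), read 5′ to 3′ on the gene's strand, and end before the first annotated transcribed base. The lines cover chr14:18239128-18239356 for Nr1d2, chr3:95882252-95882478 for Ciart and chr4:151044666-151044915 for Per3, all on the minus strand. Capitals mark the E-box CACGTG, the site of BMAL1 pairs, in Ciart, and the D-box TTANGTAA, the site of DBP, TEF, HLF and NFIL3, in Per3; none of the motifs searched was found in the Nr1d2 stretch.
Nr1d2: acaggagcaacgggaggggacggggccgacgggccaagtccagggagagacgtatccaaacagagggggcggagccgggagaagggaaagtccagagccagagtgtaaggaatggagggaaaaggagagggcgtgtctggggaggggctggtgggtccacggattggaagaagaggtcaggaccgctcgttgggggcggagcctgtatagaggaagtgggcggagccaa
Ciart: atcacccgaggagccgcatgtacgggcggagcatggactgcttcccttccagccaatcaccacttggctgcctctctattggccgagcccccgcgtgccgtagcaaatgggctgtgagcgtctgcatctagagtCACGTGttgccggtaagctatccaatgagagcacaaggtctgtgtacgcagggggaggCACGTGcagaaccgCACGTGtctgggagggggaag
Per3: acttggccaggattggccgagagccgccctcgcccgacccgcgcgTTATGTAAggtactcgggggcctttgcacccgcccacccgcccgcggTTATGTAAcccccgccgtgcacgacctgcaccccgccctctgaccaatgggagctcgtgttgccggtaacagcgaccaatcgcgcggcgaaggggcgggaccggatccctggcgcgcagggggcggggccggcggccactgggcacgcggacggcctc
The Ciart stretch held 3 E-boxes and the Per3 stretch held 2 D-boxes. Windows of 300 bases, from 250 before to 50 after a start, existed for 16 of the 19 clock genes, and some genes had several starts. On both strands, an E-box was found for 5 of these 16 genes (Ciart, Cry1, Tef, Per1 and Bhlhe41), a D-box for 1 (Per3), and the ROR element TAGGTCA for 2 (Arntl and Nfil3). Among all 32851 windows of that length, 7.15% held the E-box, 2.32% the D-box and 2.61% the ROR element. These are shares of windows, whereas the counts above are of genes, which had 21 windows in all. The counts and shares are therefore not directly comparable. These matches describe letters in a window and were not tested as sites.

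Nr1d2 encodes REV-ERB beta, a nuclear receptor that represses transcription. It lies at chr14:18204054-18239127 (GRCm38). Its level was 7.21, 7.62, 7.43 and 7.68 log2 CPM in the 4 HFD libraries and 5.65, 5.94 and 6.32 in the 3 RC libraries. The lowest HFD library stood above the highest RC library, and the change was 1.51 ± 0.31 (log2, SE; limma adjusted p = 0.0365). The recovered reads behind these levels were 2593 to 5182 under HFD and 974 to 1578 under RC. Its relative Nr1d1, REV-ERB alpha, was at 6.01, 6.27, 5.71 and 6.03 under HFD and at 3.89, 4.49 and 5.23 under RC. The groups did not overlap, but the RC mice spread over more than a log2 unit, and the change of 1.47 ± 0.42 did not pass (limma adjusted p = 0.329).

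Rora, a receptor that activates through the sites that REV-ERBs repress, differed by 0.29 ± 0.13 on the log2 scale, with overlapping groups (6.23 to 6.65 log2 CPM under HFD against 6.06 to 6.24 under RC).

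Of the activating arm, Arntl was at 3.93, 3.36, 3.88 and 3.77 log2 CPM under HFD and at 5.29, 5.04 and 4.78 under RC. Npas2 was at 1.05, 0.87, 1.46 and 0.74 under HFD and at 2.75, 2.99 and 2.98 under RC. Both were lower in every HFD mouse, Arntl by 1.30 ± 0.40 and Npas2 by 1.87 ± 0.61 on the log2 scale, and neither passed (limma adjusted p = 0.382 and 0.391). Clock, the other partner of BMAL1, was at 7.31 to 7.60 under HFD and at 7.42 to 7.69 under RC, a difference of -0.07 ± 0.12.

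The repressors of the core loop did not move as a group. Per3 was at 4.84, 5.46, 5.13 and 5.24 log2 CPM under HFD and at 3.88, 3.70 and 4.17 under RC, a difference of 1.25 ± 0.36. Ciart, a repressor of CLOCK and BMAL1, was at 1.90, 2.15, 1.96 and 1.92 under HFD and at 0.95, 0.74 and 1.21 under RC. In both, all HFD libraries lay above all RC libraries. Cry1 had the opposite sign, with 3.85 to 3.98 under HFD and 5.21, 4.85 and 4.44 under RC, a difference of -0.90 ± 0.28. Per1 (-0.06 ± 0.23), Per2 (-0.27 ± 0.21) and Cry2 (0.11 ± 0.20) differed less. Bhlhe41 (0.27 ± 0.13) and Bhlhe40 (0.23 ± 0.18), E-box repressors, were slightly higher under HFD. In Cry2 and Bhlhe41 too, all HFD libraries lay above all RC libraries, so groups can lie apart with a small change.

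The output factors mirrored this division. Dbp had the largest positive difference of the list, with 5.89, 6.29, 5.75 and 6.12 log2 CPM under HFD and 3.68, 4.43 and 4.81 under RC (1.71 ± 0.42, limma adjusted p = 0.205). Tef was at 6.84, 7.15, 6.88 and 6.99 under HFD and at 5.82, 5.92 and 6.17 under RC (1.00 ± 0.26, limma adjusted p = 0.251). Both groups were apart in both genes. Nfil3, the repressor at the same D-boxes, was at 3.84, 3.38, 3.99 and 3.48 under HFD and at 4.80, 4.77 and 4.65 under RC, a difference of -1.07 ± 0.46. Hlf overlapped between the diets, with a difference of 0.56 ± 0.31.

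**Figure D1:**
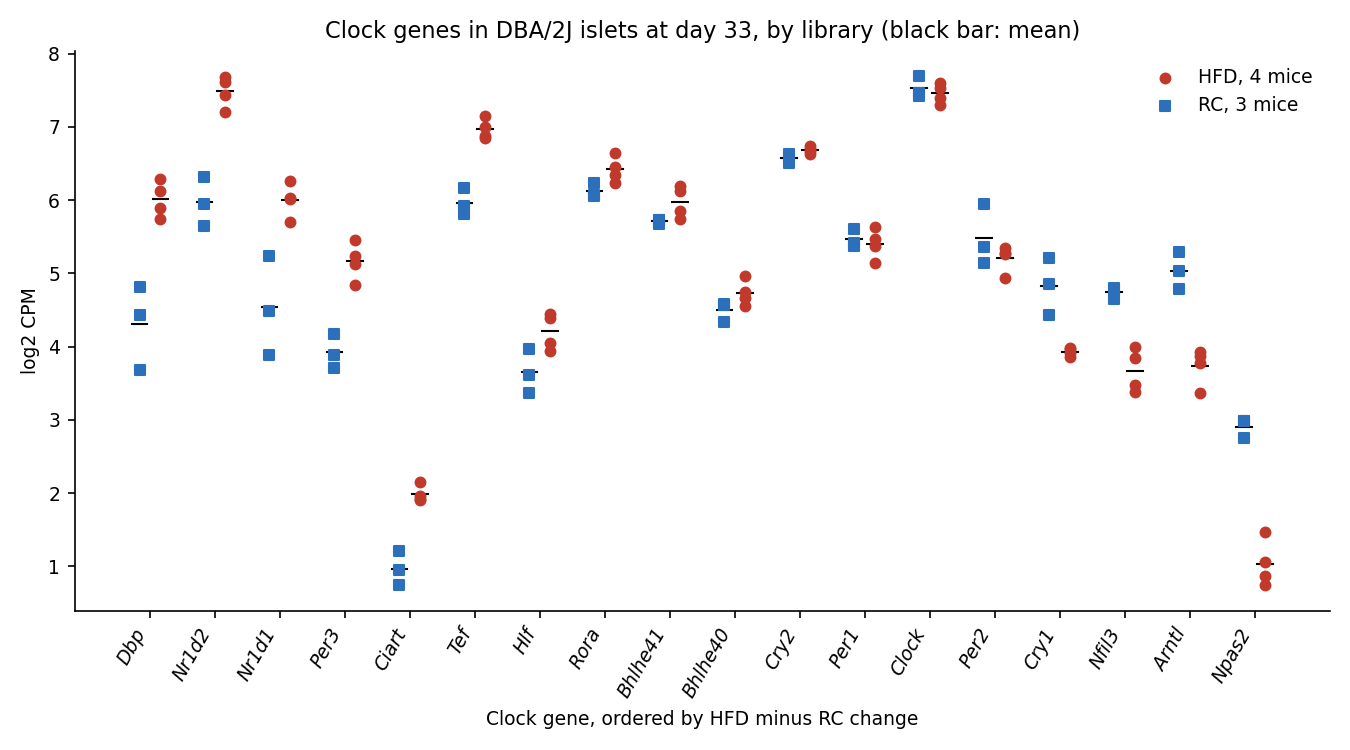
Level in log2 CPM (y axis) of 18 clock genes (x axis, ordered by change) in each of the 4 HFD libraries (red circles) and 3 RC libraries (blue squares), with black bars at the group means. The groups lie apart for Dbp, Nr1d2, Nr1d1, Per3, Ciart and Tef at the left and for Cry1, Nfil3, Arntl and Npas2 at the right. They also lie apart, with smaller changes, for Bhlhe41 and Cry2, while Per1, Clock and Per2 in the middle overlap.

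Counted over the list, 8 of the 19 clock genes were higher and 5 were lower at an unadjusted p under 0.05, where 5.31% and 3.07% of all genes tested did so. In 8 clock genes every HFD library lay above every RC library, and in 5 every HFD library lay below, against 6.68% and 5.48% of all genes. The list's median change was 0.23, beside 0.02 for all genes, and says little here because members stood on both sides. The clock genes were listed with earlier results of these data known. RC replicate 1 had the lowest level of Dbp, Nr1d1 and Nr1d2 and the highest level of Arntl and Cry1 among the RC mice, so the size of these changes leaned on it. Without it, Dbp differed by 1.39 and Nr1d1 by 1.14. Without RC replicate 2, the count of clock genes higher at an unadjusted p under 0.05 was 5.

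The number of genes that passed depended on which libraries set the estimate of the spread. When the 22 DBA/2J libraries were fitted alone, 23 genes passed (0.157%), 11 higher and 12 lower. Of these 23, 10 were clock genes, among them Nr1d2, Dbp, Nr1d1, Tef and Per3 on the higher side and Npas2, Arntl, Cry1 and Nfil3 on the lower side, with limma adjusted p from 0.0003042 to 0.01334. With the 7 libraries of day 33 alone, 9 genes passed, 5 of them clock genes (Nr1d2, Tef and Per3 higher, Npas2 and Arntl lower). Clock genes spread widely between mice in some of the other groups: Nr1d1 ran from 2.5 to 4.64 log2 CPM in BALB/cJ RC mice and from 3.27 to 6.24 in BALB/cJ HFD mice at day 33. The 3 calls of the fit over all 69 libraries were lost in nearly every fit that left out 1 of the 7 mice, as 0 or 1 gene then passed. A gene's change kept its sign in all 19 alternative analyses for Nr1d2, Dbp, Nr1d1, Tef, Per3, Arntl, Cry1 and Nfil3. For Npas2 and Ciart it did so in all 18 that tested the gene. The groups of these genes did not overlap, so leaving out a mouse could not change the sign. Fits that changed only the estimate of the spread could not change it either, so the kept sign says little.

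Set against the other DBA/2J mice, the 2 diet groups of day 33 lay toward the outside of the range. Nr1d2 ran from 6.18 to 6.94 log2 CPM over all mice of days 5 and 13, whereas every HFD mouse of day 33 was above this range and RC replicates 1 and 2 were below it. Npas2 ran from 1.66 to 3.35 in those earlier mice; the RC mice of day 33 lay inside that range and all 4 HFD mice below it. Dbp ran from 4.49 to 6.08 at days 5 and 13, which held 2 of the 4 HFD values (5.89 and 5.75) and 1 RC value (4.81).

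The diet difference of clock genes had another size, and often another sign, in the other comparisons. In the same fit, 80 genes passed at day 5 in DBA/2J, 1 of them on the clock list. At day 13 in DBA/2J, and at day 33 in C57BL/6J and BALB/cJ, 0 genes passed. Nr1d2 differed between diets by 0.03 ± 0.28 at day 5 and by -0.22 ± 0.31 at day 13 in DBA/2J, and at day 33 by -0.04 ± 0.31 in C57BL/6J and 0.48 ± 0.28 in BALB/cJ. Dbp differed by 0.83 ± 0.38 at day 5 and by -0.56 ± 0.41 at day 13. Npas2 differed by -0.22 ± 0.57 at day 5 and 0.49 ± 0.61 at day 13, and by -1.19 ± 0.61 in C57BL/6J and -0.39 ± 0.57 in BALB/cJ at day 33. The change at day 33 minus that at day 13 was 1.73 ± 0.43 for Nr1d2, 2.26 ± 0.59 for Dbp and -2.37 ± 0.87 for Npas2, and none of these passed (limma adjusted p = 0.475, 0.537 and 1). The change minus that at day 5 was 1.48 ± 0.42 for Nr1d2 (limma adjusted p = 0.0728). In the fit over all libraries, a difference of clock gene responses between days or strains was therefore not shown by the test. With the DBA/2J libraries fitted alone, the day 33 changes of Nr1d2, Dbp and Npas2 had smaller standard errors (0.18, 0.26 and 0.27). In that fit, 11 genes passed for the difference from day 13 and 5 for the difference from day 5. Whether clock genes were among them is not reported here.

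**Figure D2:**
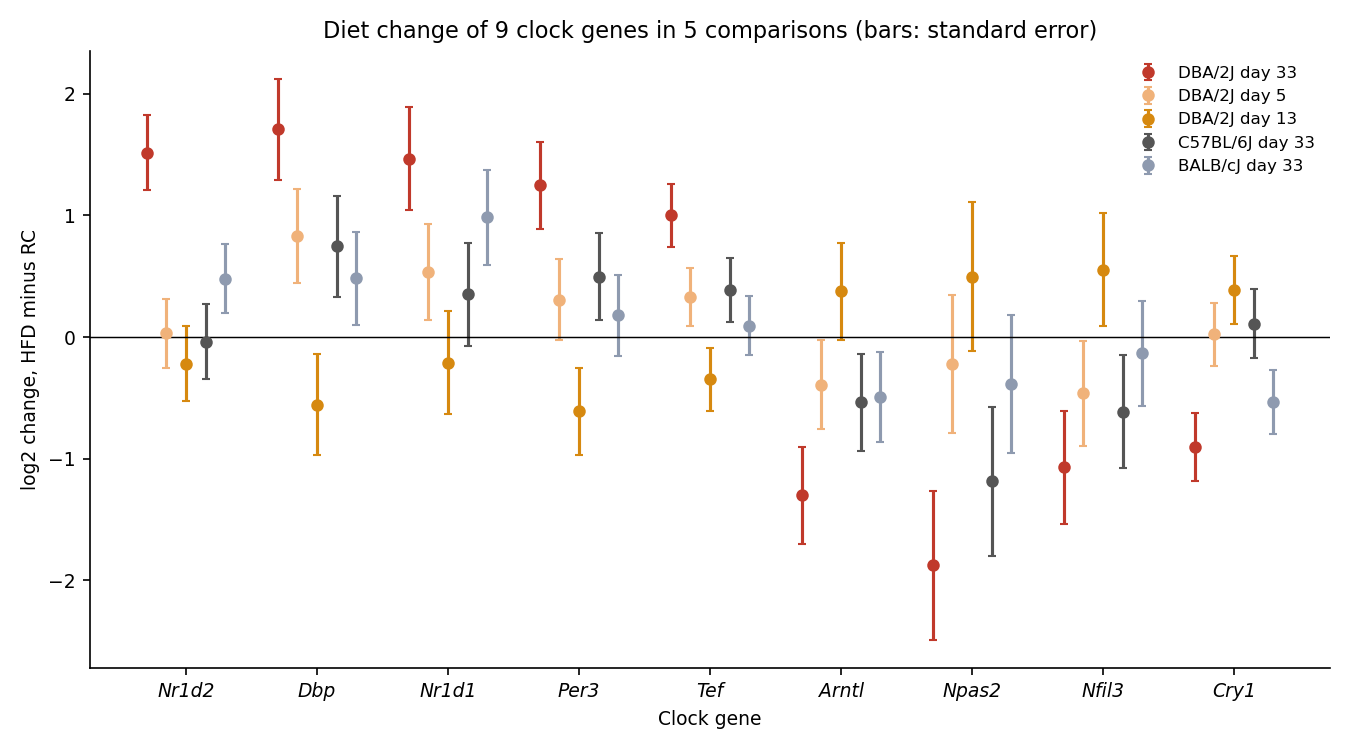
Log2 change, HFD minus RC (y axis), with standard errors as bars, for 9 clock genes (x axis) in DBA/2J at days 33, 5 and 13 and in C57BL/6J and BALB/cJ at day 33. The red points of DBA/2J day 33 lie farthest from 0 in each gene, and the day 13 points lie on the other side of 0 in each of the 9.

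Across all genes, the differences of diet effects were tested in the same way. The effect at day 33 minus the effect at day 5 passed for 2 genes (0.0137%), Arl6ip6 and Ino80c. Ino80c, a subunit of the INO80 chromatin remodeller, was at 4.38, 4.32, 4.26 and 4.43 log2 CPM under HFD and at 3.78, 4.03 and 3.90 under RC at day 33. Its change of 0.45 ± 0.095 at day 33 (limma adjusted p = 0.0660) stood beside -0.21 at day 5, a difference of 0.66 ± 0.13 (limma adjusted p = 0.0488). Arl6ip6 differed by 0.21 ± 0.10 at day 33, with overlapping groups, and by -0.49 at day 5, a difference of 0.70 ± 0.14 (limma adjusted p = 0.0488). The RC mean of Ino80c was 3.90 log2 CPM at day 33 and 4.42 at day 5. With voom in limma on recovered reads, 0 genes passed for the difference from day 5, so both calls were lost. In limma, 0 genes passed for the difference from day 13 (0%; 692 at an unadjusted p under 0.05), from C57BL/6J (0%; 2531) or from BALB/cJ (0%; 351). With voom, 1, 0 and 0 genes passed in these 3 differences. The lowest limma adjusted p in the difference from C57BL/6J was 0.0503, shared by Zfp982, Brdt and Wwp1. Wwp1, a ubiquitin ligase, was 0.34 ± 0.11 higher under HFD in DBA/2J and 0.41 lower in C57BL/6J.

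The other genes that passed at day 33 were at low levels. Adgrd1, an adhesion G protein-coupled receptor, was at 2.12, 1.79, 1.50 and 1.54 log2 CPM under HFD and at 0.22, 0.78 and -0.01 under RC. Its change was 1.40 ± 0.28, or 2.64-fold (limma adjusted p = 0.0365), from 41 to 89 recovered reads per HFD library and 18 to 34 per RC library. Its level was 0.46 to 1.53 in the DBA/2J mice of days 5 and 13, so 2 of the 3 RC mice of day 33 lay below that range and 3 of the 4 HFD mice above it. Zfp982, a zinc finger gene of a family with similar copies that counting could divide, rested on 9, 11, 11 and 7 reads under HFD and on 2, 2 and 4 under RC. Its fitted change of 1.45 ± 0.29 (limma adjusted p = 0.0365) depends on the small count added before logs were taken. Adgrd1 and Zfp982 are in the 25% of genes with the lowest levels, outside the rule for named genes, and were chosen after their values were seen.

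Genes with the next lowest p-values did not pass and are given as values. Besides Ino80c, Dbp and Tef, the 12 of lowest p on the higher side held, among others, Glul, Pcdh17, Aqp4, Fabp4, Ctso, Leprot and Sult1c2, with differences of 0.26 to 1.15 and limma adjusted p of 0.251 to 0.321. Glul, glutamine synthetase, was at 8.07, 8.37, 8.05 and 8.46 log2 CPM under HFD and at 7.82, 7.95 and 7.94 under RC. Pcdh17, a protocadherin, was at 3.13, 2.87, 3.12 and 3.19 against 2.30, 1.94 and 2.35. Leprot, which shares its promoter with the leptin receptor gene, showed little spread, with 5.38 to 5.44 against 5.08 to 5.24. In these 7 genes every HFD library lay above every RC library, as in 6.68% of all genes. They were picked for low p in these data, which favours such separation.

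On the lower side, Zfp746, a zinc finger repressor, had the lowest p. It was at 5.00, 5.08, 5.04 and 5.00 log2 CPM under HFD and at 5.34, 5.31 and 5.37 under RC (-0.31 ± 0.070, limma adjusted p = 0.0964). Ovol2, a transcription factor of epithelial cells, was at 3.37, 3.20, 3.17 and 3.04 against 4.31, 4.56 and 4.40, a difference of -1.23 ± 0.34. Plk3, a stress-responsive kinase, was at 4.34 to 4.48 against 4.93, 5.40 and 5.36, and Aen, a p53-induced nuclease, at 3.88 to 4.0 against 4.41, 4.57 and 4.52. Sec14l1, C8b, Vps37b, Tubb4a and Leo1 also had all HFD below all RC libraries, with differences from -0.64 to -0.40. Of all genes, 5.48% lay so, and these too were picked for low p. Id3, an inhibitor of helix-loop-helix factors, overlapped through HFD replicate 1 (3.36).

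The list of fatty acid oxidation genes, which PPAR receptors drive, and of PPAR targets leaned toward HFD, without a gene that passed. Of 36 measured members, 32 had a positive difference (7865 of all 14604 genes), with a median of 0.18 beside 0.02 for all genes. Of these, 10 were higher and 0 lower at an unadjusted p under 0.05 (5.31% and 3.07% of all genes), and in 9 the HFD libraries lay above all RC libraries (6.68% of all genes). Cpt1a, the gatekeeper of fatty acid entry into mitochondria, was at 6.26, 5.90, 6.20 and 6.18 log2 CPM under HFD and at 4.81, 5.27 and 6.10 under RC. The groups overlapped because RC replicate 3 lay within the HFD values, and the difference was 0.74 ± 0.24 (limma adjusted p = 0.382). Etfa, which passes electrons from fatty acid oxidation to the respiratory chain, was at 5.89 to 6.03 against 5.57 to 5.68, a difference of 0.31 ± 0.089. Eci2, an enoyl-CoA isomerase, was at 5.68 to 5.86 against 5.18 to 5.51. Pdk4, a PPAR target that blocks pyruvate oxidation, differed by 0.14 ± 0.27. The receptor genes on the list were split. Ppara differed by 0.70 with overlapping groups. Ppard differed by -0.24, with every HFD library below every RC library, as in 5.48% of all genes. Without RC replicate 1 the count at an unadjusted p under 0.05 was 6, and without HFD replicate 1 it was 7.

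Fabp4 belongs to this list as a PPAR target and is also a marker of fat and endothelial cells. It was at 5.27, 4.09, 4.10 and 4.20 log2 CPM under HFD and at 3.12, 3.19 and 3.49 under RC, a difference of 1.15 ± 0.32. HFD replicate 1 stood more than a log2 unit above the other 3, which were still above all RC mice. The summed endothelial markers of that library were 1299 CPM, beside 915 to 1060 CPM in the other 6, and their part in the Fabp4 level was not tested.

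In the tricarboxylic acid cycle and its feeders, 6 of 28 genes were higher and 0 lower at an unadjusted p under 0.05 (5.31% and 3.07% of all genes), with a median of 0.07. Glud1, glutamate dehydrogenase, was at 7.18 to 7.36 log2 CPM under HFD and at 7.05 to 7.14 under RC. Pdhb, a subunit of pyruvate dehydrogenase, was at 6.26 to 6.35 against 6.06 to 6.18. Pdk2, a kinase that inhibits this enzyme, was at 5.31 to 5.44 against 4.73, 5.01 and 5.34. These differences were small, 0.18 to 0.37, and did not pass. Of 63 genes of oxidative phosphorylation, 45 were positive with a median of 0.04, and 62 of 79 cytosolic ribosomal protein genes were positive with a median of 0.08. Over all genes, 7865 of 14604 were positive, and sign counts were not tested.

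Genes of DNA replication and mitosis leaned the other way. Of 46 measured, 41 had a negative difference (6737 of all 14604 genes), with a median of -0.42. In 16 every HFD library lay below every RC library, where 5.48% of all genes did so. At an unadjusted p under 0.05, 3 were lower (3.07% of all genes) and 0 higher, and 0 passed after adjustment (limma). The count of 3 was 0 without RC replicate 2 and 1 without HFD replicate 1 or RC replicate 3. Mki67, a marker of dividing cells, was at 3.10, 3.27, 3.61 and 3.33 log2 CPM under HFD and at 4.14, 4.01 and 3.89 under RC. All HFD mice were lower, and the difference of -0.68 ± 0.46 was small against the spread over all groups of the series (limma adjusted p = 0.709). Mcm5, of the replicative helicase, was at 2.14, 2.20, 2.27 and 1.42 against 2.17, 2.76 and 2.67, a difference of -0.53 ± 0.27 with overlapping groups. Tyms (-0.21 ± 0.14) and Mcm6 (-0.34 ± 0.23) overlapped too. The stellate and Schwann cell markers were also lower in HFD replicates 2 to 4, with values given with the marker lists, and their part in this result was not tested. The median of the replication list was -0.36 in DBA/2J at day 5, 0.12 at day 13, -0.53 in C57BL/6J and -0.08 in BALB/cJ at day 33. In bulk islets, fewer dividing cells and less RNA of these genes per cell cannot be told apart, and the same holds for every list here.

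**Figure D3:**
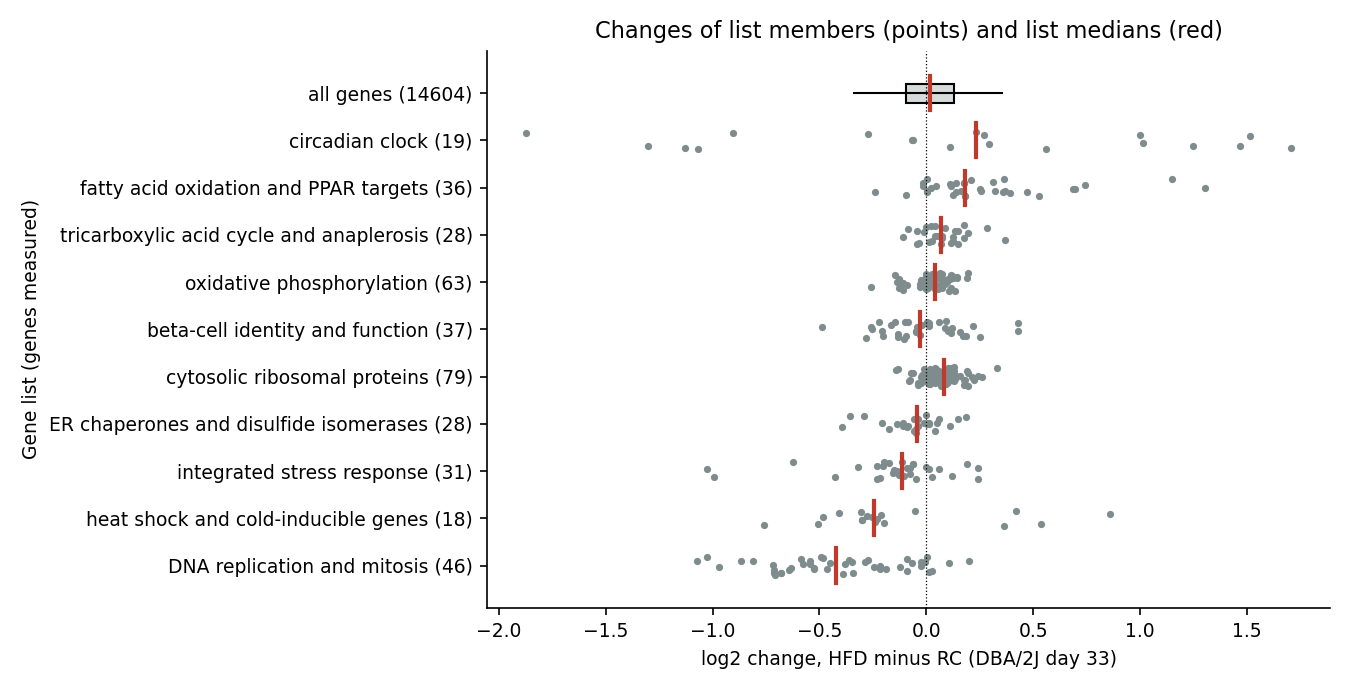
Log2 change, HFD minus RC, in DBA/2J at day 33 (x axis) of the members of 10 gene lists (y axis, number measured in brackets), each member a point and each list median a red bar. For all 14604 genes the box spans the 25th to 75th percentile and the line the 5th to 95th. Clock genes spread from -1.87 to 1.71, fatty acid oxidation lies mostly right of 0 and DNA replication mostly left.

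The list of heat shock and cold-inducible genes had members on both sides. Rbm3, a cold-inducible RNA-binding protein, was at 5.99, 6.14, 6.08 and 6.33 log2 CPM under HFD and at 4.88, 5.35 and 5.60 under RC, a difference of 0.86 ± 0.27 (limma adjusted p = 0.382). It passed when the 22 DBA/2J libraries were fitted alone (limma adjusted p = 0.01103). Hsf1, the heat shock transcription factor, was at 4.78 to 4.95 against 5.02 to 5.22, and Stip1, a co-chaperone, at 6.39 to 6.80 against 6.82 to 7.17. Cirbp, the other cold-inducible gene measured, differed by 0.54 ± 0.26 with overlapping groups, and was named after its values were seen. Of the 18 genes, 14 were negative and the median was -0.25, and besides Rbm3 and Cirbp the chaperones Hspa1a (0.42) and Hspa1b (0.36) were positive.

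Of 31 genes of the integrated stress response, 24 were negative with a median of -0.11, 1 was lower at an unadjusted p under 0.05 (3.07% of all genes), and 0 passed after adjustment (limma). Chac1, an ATF4 target that degrades glutathione, was at 4.39, 3.52, 4.93 and 3.38 log2 CPM under HFD and at 5.08, 4.72 and 5.44 under RC, a difference of -1.03 ± 0.45 with overlap. Ddit3 (CHOP) differed by -0.43 ± 0.21, Psph, of serine synthesis, by -0.23 ± 0.13, and Atf4 itself by -0.17 ± 0.15. Hspa5, the main chaperone of the endoplasmic reticulum, was at 11.06 to 11.28 against 10.95 to 11.32. For 28 chaperones and isomerases of that compartment the median was -0.04 and 0 reached an unadjusted p under 0.05.

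Beta-cell identity genes did not move together. Of 37 measured, 17 were positive and 20 negative, with a median of -0.03; 4 were higher and 0 lower at an unadjusted p under 0.05 (5.31% and 3.07% of all genes). Slc2a2, the GLUT2 glucose transporter, was at 10.07, 10.35, 10.29 and 10.57 log2 CPM under HFD and at 9.81, 9.89 and 9.98 under RC, a difference of 0.43 ± 0.15 (limma adjusted p = 0.491). Trpm5, a cation channel, was at 6.89 to 7.20 against 6.35 to 6.80, and Isl1, an islet transcription factor, differed by 0.25 ± 0.10 with overlap. The transcription factor Mafa lay lower in every HFD mouse, at 6.75, 6.71, 6.49 and 6.56 against 6.93, 7.59 and 6.84, a difference of -0.49 ± 0.28 that was -0.26 without RC replicate 2. Nkx6-1 (8.28 to 8.42 against 8.47 to 8.65) and Ucn3 (9.16 to 9.19 against 9.23 to 9.50), a marker of mature beta cells, did the same by smaller margins. Pdx1, Glp1r, Gipr and Txnip overlapped, with differences of -0.05, 0.11, 0.01 and 0.32.

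The main hormone genes overlapped between the diets. Ins1 was at 15.40, 15.35, 15.40 and 15.22 log2 CPM under HFD and at 15.30, 15.86 and 15.72 under RC, a difference of -0.28 ± 0.19. Ins2 differed by -0.25 ± 0.23, and the insulin genes together took 13.9% to 16.2% of the reads under HFD and 14.6%, 20.4% and 19.4% under RC. RC replicate 1 was thus at the level of the HFD mice. Iapp (0.01 ± 0.11), Gcg (-0.03 ± 0.20), Sst (0.01 ± 0.16), Ppy (0.16 ± 0.34) and Pyy (0.27 ± 0.23) showed no detectable difference at this number of mice. Ghrl, which encodes ghrelin and was named after its values were seen, rested on 1 to 9 recovered reads per HFD library and 7 to 15 per RC library. Its log2 CPM lay below all RC mice in every HFD mouse (-1.02 ± 0.52, limma adjusted p = 0.608), by a margin too small to show at 2 decimals.

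The 7 libraries held 14801231 to 26246724 reads in the deposited genes, and the defining hormones of alpha, beta, delta and PP cells were high in all of them, as the islet label states. HFD replicate 1 stood apart on the first principal component (-42.3, against -11.2 to 30.5 for the other 6; 40.2% of the variance). Its 4 measured lymphocyte markers of 16 listed summed to 98.3 CPM, beside 8.1 to 12.2 CPM in the others, and its 22 stellate cell and fibroblast markers to 1554 CPM, beside 833 to 1195 CPM. The mean level of these stellate markers was 5.21 log2 CPM in HFD replicate 1 and 3.72, 3.75 and 3.24 in the other HFD mice, against 3.96, 4.09 and 4.39 under RC. In HFD replicates 2 to 4, 10 of the 22 stellate markers and 5 of 8 Schwann cell markers lay below all RC mice, as did 19 of the 46 replication genes and 8.81% of all genes. Fn1 and Col3a1, of the stellate list, were at 4.29 and 6.82 log2 CPM in HFD replicate 1. In the other 6 libraries they were at 0.52 to 2.51 and 4.82 to 6.18. The 29 acinar markers, from digestive enzyme cells, ranged from 1039 to 13037 CPM under HFD and from 3523 to 7821 CPM under RC, and Reg1, an acinar and stress gene, ranged from 4.17 to 7.75 log2 CPM under HFD. No measured marker was at the floor of the values in any of the 7 libraries. Without HFD replicate 1, the clock counts at an unadjusted p under 0.05 were again 8 higher and 5 lower, and the replication count was 1 lower. With all 7 mice, 17 of 22 stellate markers were negative (median -0.19), and the medians of the macrophage, endothelial and delta lists were -0.0033, 0.10 and 0.01. No marker of these lists passed.

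**Figure D4:**
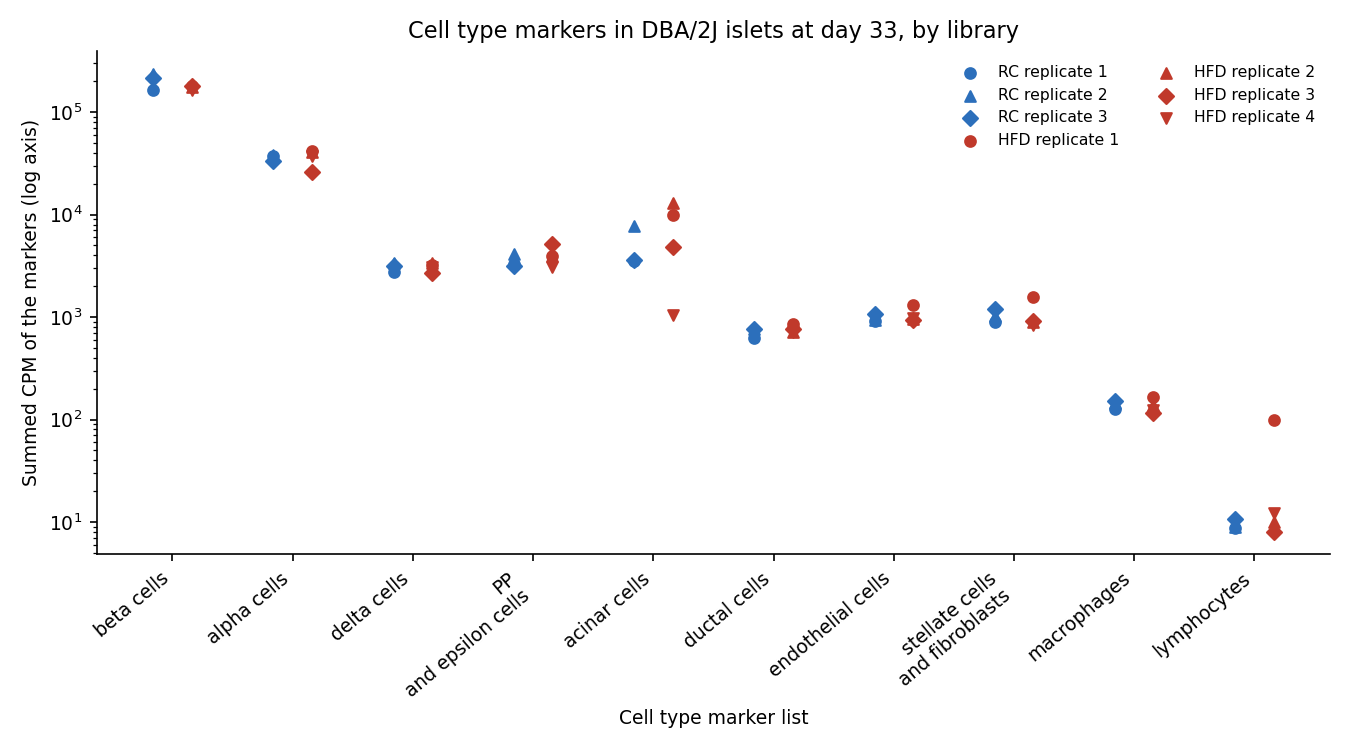
Summed CPM (y axis, log scale) of 10 cell type marker lists (x axis) in each RC library (blue) and HFD library (red), with a symbol for each replicate. The lymphocyte sum of HFD replicate 1 lies at 98.3 CPM above all others, and the acinar sum varies most between mice of 1 diet.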

How the data were processed

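Poly(A) RNA of islets was sequenced with stranded single-end reads of 125 bases per the labels' protocols. The deposited log2 values are log2 CPM (read counts scaled to library size) that the authors normalized between libraries; STAR 2.5.3a, HTSeq 0.9.1, edgeR and GRCm38 are named in the submitters' processing notes. Below a set limit on read number, every value was a whole number of reads within 0.05 once the common floor of -3.54 log2 CPM was read as 0 reads. Higher values were rounded to whole reads without this check. The read numbers used here come from both. Of the gene identifiers, 14589 matched GENCODE M21, and 47 of 62 missing or date-like symbols were taken from it.

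A model with 1 mean for each of the groups of strain, diet and day was fitted to all 69 libraries (limma 3.58.1 in R 4.3.3, eBayes with trend, two-sided, Benjamini-Hochberg over 14604 genes, threshold 0.05) and tested on simulated data. Values after ± are standard errors, and a difference is HFD minus RC. Groups were taken from the sample labels, and replicates are numbered in the order of deposit. Days follow the sample labels (5, 13 and 33), since the text on the series repeats 13 in place of 33.

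The members and the 42 gene lists were chosen with earlier results of these data known. Named genes leave out predicted and non-coding genes and the lowest 25% by level. They are all that passed, the 12 of lowest p on each side, the 3 of lowest p in a list, the 4 of lowest p in each difference of effects, and fixed islet genes; the clock list is added. Some genes that these rules name are not reported here. The 19 alternatives comprised other spreads, scalings, filters, covariates and weights, voom, and each of the 7 mice left out.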

Additional observations from a re-analysis of the deposited data

Results flagged for a closer look

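Among 145 sets of 4 HFD values tested, 9 held a mouse set apart from the other 3, by a gap large against the range of the 4 values. Such a gap can be small in log2 units, and chance alone gives such a result in about 1 of 20 sets. In HFD replicate 1, Fabp4 (5.27 log2 CPM) and Rgs5 (8.01), a pericyte gene, lay above the other 3 mice. Nkx6-1 (8.28) and Gpam (4.21), an enzyme of triglyceride synthesis, lay below them. The same mouse had the highest mean level of the NF-kB and chemokine list (3.76), the interferon list (3.53) and the endothelial list (5.90). In HFD replicate 4, Mcm5 (1.42) and the mean of the cholesterol synthesis list (5.16, beside 5.28 in each of the other 3) lay below the others.

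The diet effect of Arl6ip6 and Ino80c differed between days 33 and 5, by 0.70 and 0.66 on the log2 scale (limma adjusted p = 0.0488 for both). Both calls were lost when HFD replicate 1, 2 or 4 or RC replicate 3 was left out, as 0 genes then passed.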

How the results depend on the processing

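Where 3 genes passed at day 33, 5 passed without the trend in eBayes, 1 with macrophage and endothelial levels as covariates, 9 with the 7 libraries alone, 23 with the 22 DBA/2J libraries alone and 1406 with array weights, which gave HFD replicate 2 a weight of 4.26 and RC replicate 1 a weight of 0.502. None passed with a robust eBayes, with genes of at least 2 log2 CPM, with voom or with the title number as a replicate block, and 0 to 1 passed with a mouse left out. The block set HFD replicate 4 aside, since no RC library analysed shares its number. For Fn1, Reg1, Iapp and Gipr it gave the same changes as leaving that mouse out, so it is not a separate check of the changes. The labels do not say what the numbers in the titles mean, and the main fit did not use them to pair mice. Deviations of same-numbered mice correlated at -0.287, 0.164 and -0.114, and those of other pairs at -0.224 to 0.302. These ranges overlap, so the correlations cannot decide whether the numbers pair mice. For the difference from day 5 (2 genes), the count was 5871 with array weights, 106 with stellate and 53 with macrophage and endothelial covariates, 5 with DBA/2J alone, 0 with the block or voom, and 0 to 179 with a mouse left out (179 without RC replicate 1). For the difference from C57BL/6J (0) it was 5 with the acinar covariate, 4998 with array weights and 6 without trend, for BALB/cJ (0) 2 with array weights, and for day 13 (0) 454 with array weights, 1 without trend, 11 with DBA/2J alone and 1 with voom. The causes were not tested.

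Counts at an unadjusted p under 0.05, added after the data were seen, were 5 to 8 higher and 4 to 5 lower clock genes, 6 to 13 higher fatty acid oxidation genes and 0 to 4 lower replication genes with a mouse left out (5 higher clock genes and 0 replication genes without RC replicate 2, 6 oxidation genes without RC replicate 1, and 1 replication gene without HFD replicate 1 or RC replicate 3). Some log2 changes that did not pass changed sign. With a mouse left out they ran from -0.141 to 0.0251 for Per1, -0.122 to 0.0132 for Clock, -0.0012 to 0.318 for Pdk4, -0.0247 to 0.064 for Iapp, -0.0848 to 0.0016 for Pdx1, -0.109 to 0.142 for Gcg, -0.085 to 0.106 for Sst, -0.089 to 0.0948 for Hspa5, -0.0407 to 0.101 for Gipr, -0.93 to 0.325 for Fn1 and -1.11 to 0.0804 for Reg1. Array weights gave -0.0082 for Iapp and 0.0531 for Gcg, and quantile normalization -0.0379 for Sst, -0.108 for Hspa5 and -0.0082 for Gipr. The stellate covariate gave -0.0259 for Gipr and 0.0156 for Fn1, the macrophage and endothelial covariates -0.0348 for Sst, and the replicate block -0.0096 for Iapp, -0.0407 for Gipr, 0.325 for Fn1 and 0.0804 for Reg1. The changes of Nr1d2, Adgrd1 and Zfp982 stayed positive in all alternatives that gave them a value. Their groups did not overlap, so leaving out a mouse could not change the sign. With 3 and 4 mice a group, changes of the size of most list members could not be told from 0.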

Other observations

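Several groups outside the main account leaned one way with no gene that passed (limma, adjusted over all genes). Of 23 immediate early genes 18 were positive (7865 of all 14604 genes), with a median change of 0.18 and none at an unadjusted p under 0.05. Nr4a1, a nuclear receptor induced by activity, was at 4.83, 3.99, 5.55 and 4.27 log2 CPM under HFD and at 2.81, 3.29 and 4.47 under RC, so the groups overlapped. Of 32 genes of insulin and IGF signalling 25 were positive, with the insulin receptor Insr 0.19 ± 0.10 higher. All 7 measured genes of the mitochondrial genome were positive, with a median of 0.20. The 4 measured Reg genes, which code for secreted lectin-like proteins, were all negative (median -1.44) with overlapping mice.

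Lipid genes outside oxidation were mixed. Gpam was at 4.21, 4.53, 4.53 and 4.58 log2 CPM under HFD and at 4.0, 3.97 and 4.11 under RC, and Abca1, a cholesterol exporter, was 0.47 ± 0.22 higher. Of 30 genes of cholesterol synthesis and uptake 22 were negative, and Tm7sf2, a sterol reductase, was at 3.03 to 3.29 against 3.44 to 3.76. Among 13 hypoxia genes 3 were higher and 1 lower at an unadjusted p under 0.05 (5.31% and 3.07% of all genes): Ankrd37 by 0.61 ± 0.20 and Kdm3a by 0.24 ± 0.10 higher, and P4ha1 by 0.42 ± 0.18 lower. Gclc, of glutathione synthesis, was 0.22 ± 0.087 higher. Of genes for channels and granule release, Cacna2d1 (0.37 ± 0.15) and Sytl4 (0.23 ± 0.082) were higher with overlapping mice.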
